A study of Mus musculus with 6 samples.

Results

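ChREBP is a transcription factor that carries a glucose signal to the genome, and this report follows its gene, *Mlxipl*, with 8 genes tied to it in beta-cells that were reaggregated alone or together with other islet cells. The 9 genes are *Mlxipl*, its partners *Mlx* and *Mlxip*, and the glucose-response targets *Txnip*, *Arrdc4*, *Klf10*, *Pklr*, *Khk* and *Tkfc*, out of 13535 genes in the table. They were found by gene symbol, and they were chosen by their role with measured differences between the groups already known, so that their differences between the groups are given here as a description and not as a test. All 9 had at least 10 normalized counts in each of the 6 libraries.

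RNA was sequenced from beta-cells that had been aggregated for 5 days either with alpha- and delta-cells (pseudo-islets, 3 samples) or by themselves (pseudo-beta, 3 samples) and then sorted again. The cells of both groups came from wild-type male C57BL/6JRj mice of 12 weeks, were sorted by surface markers and were reaggregated in the same serum-containing medium. The labels number the samples 35, 36 and 37 in both groups, and samples with the same number are called an experiment here. How many mice gave cells to a sample is not given in the sources used here. Values are normalized counts, which are read estimates that the authors scaled between libraries, and log2 differences are those of pseudo-islets minus pseudo-beta on log2(normalized count + 1). A negative difference is therefore a higher level in pseudo-beta.

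The sorted cells had the transcripts of beta-cells, with 10 of 10 beta-cell markers in the table and a summed level of 6961550 to 8337440 normalized counts in the 6 libraries. The glucagon gene *Gcg* had 941 to 2094 normalized counts in the pseudo-islet libraries against 0 to 36.1 in the pseudo-beta libraries, and the somatostatin gene *Sst* had 146 to 210.2 and 0 to 4.74. The summed alpha-cell markers (7 of 12 in the table) ran from 39566 to 42694 in pseudo-islets and from 36313 to 39556 in pseudo-beta, and the delta-cell markers (4 of 8) from 399 to 549 and from 275 to 289. Those of PP-cells (3 of 4) ran from 741 to 5577 and from 438 to 2548, of immune cells (3 of 10) from 1825 to 2788 and from 1061 to 1507, and of endothelial cells (1 of 8) from 14.9 to 36.3 and from 12.3 to 36.5. In the alpha-cell sum, *Gcg* accounts for at most 2094 in pseudo-islets and 36.1 in pseudo-beta. Other genes of that list make up nearly all of the sum, which therefore does not track *Gcg*. No acinar (0 of 12) or stromal marker (0 of 8) is in the table, where every gene has at least 10 normalized counts in 3 or more libraries. A lower level of these markers is therefore not excluded. The part of these transcripts in the differences below was not tested, and in sorted bulk samples fewer cells of a type and less RNA per cell cannot be told apart.

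ChREBP and its paralog MondoA (*Mlxip*) bind DNA as heterodimers with MLX, a small partner protein of the MAX network. When glucose metabolites rise, the dimers occupy carbohydrate response elements, which are pairs of E-box-like half-sites set 5 bases apart, and switch on genes of glycolysis, fructose use and lipid synthesis together with *Txnip* and *Arrdc4*, whose products restrain glucose uptake. In beta-cells *Txnip* is among the genes most responsive to glucose, and its protein, which binds thioredoxin, is known for promoting beta-cell death when it is in excess. *Mlxipl* itself has a second, upstream first exon that gives the short and highly active ChREBP-beta isoform. The table has 1 value for each gene and so does not separate the isoforms.

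Promoter sequences are shown because carbohydrate response elements are known to link targets to ChREBP. A single E-box is not such a pair, and *Mlx* is a partner rather than a target. RefSeq windows on GRCm38.p6, from 250 bases before to 50 after a transcription start, were at hand for 8 of the 9 genes, all but *Klf10*, with 10 windows in all. Both strands were searched for the E-box CACGTG, for the pair CANGNG and CNCNTG with 5 bases between them, and for the pair CACGNG and CACGNG with 5 bases between them. No match overlapped another in the windows of the 9 genes. Of 32851 windows of all genes, 7.15% hold the first, 0.557% the second and 0.0487% the third. Among the 9 genes, 1 match to either pair was found in *Txnip* and 1 in *Pklr*, and 4 genes held the single E-box, which were *Mlxipl*, *Arrdc4*, *Mlx* and *Khk*. In the sequences, printed 5′ to 3′ on the strand of the gene, capitals mark the match.
*Txnip* (chr3:96557840-96557920, plus strand, upstream of the gene): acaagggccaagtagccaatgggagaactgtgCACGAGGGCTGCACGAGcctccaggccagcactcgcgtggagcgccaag
*Pklr* (chr3:89136421-89136501, plus strand, intron): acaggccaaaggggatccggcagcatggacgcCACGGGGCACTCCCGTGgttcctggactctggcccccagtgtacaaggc
*Mlxipl* (chr5:135089760-135089829, plus strand, upstream of the gene): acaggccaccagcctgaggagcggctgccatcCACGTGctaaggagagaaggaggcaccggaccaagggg
*Arrdc4* (chr7:68749394-68749463, minus strand, upstream of the gene): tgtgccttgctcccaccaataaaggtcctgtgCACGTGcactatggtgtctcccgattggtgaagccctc
*Mlx* (chr11:101087218-101087276, plus strand, upstream of the gene): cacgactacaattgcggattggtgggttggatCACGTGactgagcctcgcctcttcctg

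The match in *Txnip* begins 85 bases before the start, and it is a direct repeat of one half-site, whereas that of *Pklr* begins 170 bases before the downstream of its 2 starts and has its half-sites inverted. *Mlxipl* also has 2 starts, 17001 bases apart, and its E-box begins 98 bases before the upstream one, with no match at the other. The E-box of *Arrdc4* begins 193 bases and that of *Mlx* 40 bases before the start. The one of *Khk* begins 71 bases before its start and lies in an annotated exon, so its surroundings are not printed. The windows of *Mlxip* and *Tkfc* and the upstream start of *Pklr* held none of the 3 motifs. A match describes letters in a window and does not show that ChREBP is bound there.

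*Mlxipl* (ENSMUSG00000005373, chromosome 5 from 135089890 to 135138382 of GRCm38) was lower in beta-cells from pseudo-islets. It had 2123, 2153 and 1421 normalized counts in the pseudo-islet libraries of experiments 35, 36 and 37, against 2789.9, 4725 and 2231 in the pseudo-beta libraries. Every library of pseudo-islets was below every library of pseudo-beta, and the highest value was that of pseudo-beta in experiment 36. The mean was 1899 ± 414 (SD, n = 3) in the former and 3249 ± 1309 (SD, n = 3) in the latter. This is a log2 difference of -0.73 (standard error 0.26), or a 1.65-fold higher level in pseudo-beta. Within experiments the log2 difference was -0.39, -1.13 and -0.65. It was -0.42 when the pseudo-beta library of experiment 36 was left out, and -0.96 when the one of experiment 37 was.

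The partner genes did not share one pattern. *Mlxip* (ENSMUSG00000038342, chromosome 5 from 123394798 to 123457932), which codes for MondoA, had 151, 111 and 252 normalized counts in the pseudo-islet libraries against 305, 234 and 256 in the pseudo-beta libraries. The log2 difference was -1.01 and -1.07 in experiments 35 and 36, and in experiment 37 the 2 libraries were nearly level, at -0.02. The groups overlapped, and the log2 difference was -0.70 (standard error 0.31). Transcripts annotated within it on the same strand include *Gm43813*, which had 30.6 to 35.5 normalized counts in the pseudo-islet libraries against 34.5 to 106 in the pseudo-beta libraries. The log2 difference of *Gm43813* was -1.08 (standard error 0.46), and its span shares 5378 bases with that of *Mlxip*. Strand cannot tell apart reads in bases that both genes hold, and the part of such reads in the difference of *Mlxip* was not tested. *Mlx* (ENSMUSG00000017801, chromosome 11 from 101087277 to 101092207), the partner that both ChREBP and MondoA need, had the smallest standard error of the 9 genes. Its values were 1009.9, 985 and 976 in the pseudo-islet libraries against 1107, 904 and 885 in the pseudo-beta libraries, the groups overlapped, and the log2 difference was 0.04 with a standard error of 0.15 and a 95% interval of -0.30 to 0.38. It had the opposite sign, -0.01, when libraries were scaled without their 10 most abundant genes. *Psmc3ip*, which overlaps 385 bases of *Mlx* on the opposite strand, had 21.6 to 31.6 normalized counts in the pseudo-islet libraries against 22.3 to 51.4 in the pseudo-beta libraries.

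Of the 2 arrestin-domain targets, *Txnip* was lower and *Arrdc4* higher in pseudo-islets. *Txnip* (ENSMUSG00000038393, chromosome 3 from 96557957 to 96561883) stood at 586, 334 and 1243 normalized counts in the pseudo-islet libraries against 1098, 564 and 1759 in the pseudo-beta libraries. Pseudo-islets had the lower value in each experiment, with log2 differences of -0.91, -0.76 and -0.50, but the groups overlapped, since the pseudo-islets of experiment 37 exceeded the pseudo-beta of experiments 35 and 36 and the pseudo-islets of experiment 35 exceeded the pseudo-beta of experiment 36. The log2 difference of -0.72 had a standard error of 0.48 without regard to experiment and 0.13 with the experiment as a block. Leaving out the pseudo-islet library of experiment 37 made it -1.22 and leaving out the one of experiment 36 made it -0.27, while leaving out the pseudo-beta library of experiment 36 or 37 made it -1.15 or -0.33. *Gm15441*, an antisense gene that spans *Txnip*, had 9.62, 1.34 and 17.7 normalized counts in the pseudo-islet libraries against 30.4, 4.96 and 31.2 in the pseudo-beta libraries, and reads of the pair cannot be told apart if strand was not used in counting, which is not given in the sources used here.

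*Arrdc4* (ENSMUSG00000042659, chromosome 7 from 68736995 to 68749241), whose protein, like that of *Txnip*, is an alpha-arrestin, had 164, 147 and 124 normalized counts in the pseudo-islet libraries against 113, 96.7 and 109.7 in the pseudo-beta libraries. All 3 libraries of pseudo-islets were above those of pseudo-beta. The log2 difference was 0.44 (standard error 0.26, 95% interval -0.13 to 1.01), and within experiments it was 0.53, 0.60 and 0.18.

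*Klf10* (ENSMUSG00000037465, chromosome 15 from 38291463 to 38300706) codes for a Krüppel-like repressor that is induced by glucose and TGF-beta. It had 503, 416 and 221 normalized counts in the pseudo-islet libraries against 909, 566 and 409.9 in the pseudo-beta libraries, and it was the lower in pseudo-islets in each experiment, with log2 differences of -0.85, -0.44 and -0.89. The groups overlapped only through the pseudo-beta of experiment 37, which lay below the pseudo-islets of experiments 35 and 36. The log2 difference was -0.73 (standard error 0.35). Leaving out the pseudo-islet library of experiment 37 made it -0.38, leaving out the pseudo-beta library of experiment 35 made it -0.42, and leaving out the one of experiment 37 made it -0.996.

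The enzyme genes came next, and among them *Tkfc* stood apart from *Pklr* and *Khk*. *Tkfc* (ENSMUSG00000034371, chromosome 19 from 10587791 to 10605654), for the triokinase that phosphorylates the glyceraldehyde made from fructose, had 295, 307 and 224 normalized counts in the pseudo-islet libraries against 194, 232 and 176 in the pseudo-beta libraries. It was the higher in pseudo-islets in each experiment, with log2 differences of 0.60, 0.40 and 0.35, and the fitted difference was 0.45 (standard error 0.23). The groups overlapped, with the pseudo-islets of experiment 37 below the pseudo-beta of experiment 36. *Cyb561a3*, which overlaps 8171 bases of it on the opposite strand, had 338, 257 and 200.1 normalized counts in the pseudo-islet libraries against 347, 288 and 226 in the pseudo-beta libraries, a log2 difference of -0.12 (standard error 0.26). *Ddb1* overlaps 328 bases of *Tkfc*, also on the opposite strand. It had 3655, 3190 and 2617 normalized counts in the pseudo-islet libraries against 2773, 3051 and 1866 in the pseudo-beta libraries. The log2 difference of *Ddb1* was 0.32 (standard error 0.20). Reads in the shared bases cannot be told apart if strand was not used in counting, and their part in the difference of *Tkfc* was not tested.

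*Pklr* (ENSMUSG00000041237, chromosome 3 from 89136142 to 89146784), the liver-type pyruvate kinase gene and the textbook ChREBP target, read 212, 215 and 152 normalized counts in the pseudo-islet libraries against 169, 235 and 193 in the pseudo-beta libraries. Its difference had both signs, 0.33 in experiment 35 and -0.12 and -0.34 in the others, with a log2 difference of -0.05 (standard error 0.25, 95% interval -0.60 to 0.51). *Khk* (ENSMUSG00000029162, chromosome 5 from 30921431 to 30931248), for ketohexokinase, the first enzyme of fructose use, had 913, 1061 and 742 in the pseudo-islet libraries against 846, 1164 and 718 in the pseudo-beta libraries. Its log2 difference was 0.01 (standard error 0.21, 95% interval -0.46 to 0.48), and within experiments it was 0.11, -0.13 and 0.05. Both genes overlapped between the groups. *Hcn3*, which overlaps 711 bases of *Pklr* on the opposite strand, had 21.2 to 39.5 normalized counts in the pseudo-islet libraries against 15.5 to 80.6 in the pseudo-beta libraries. The part of shared bases in the values of *Pklr* was not tested.

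**Figure D1:**
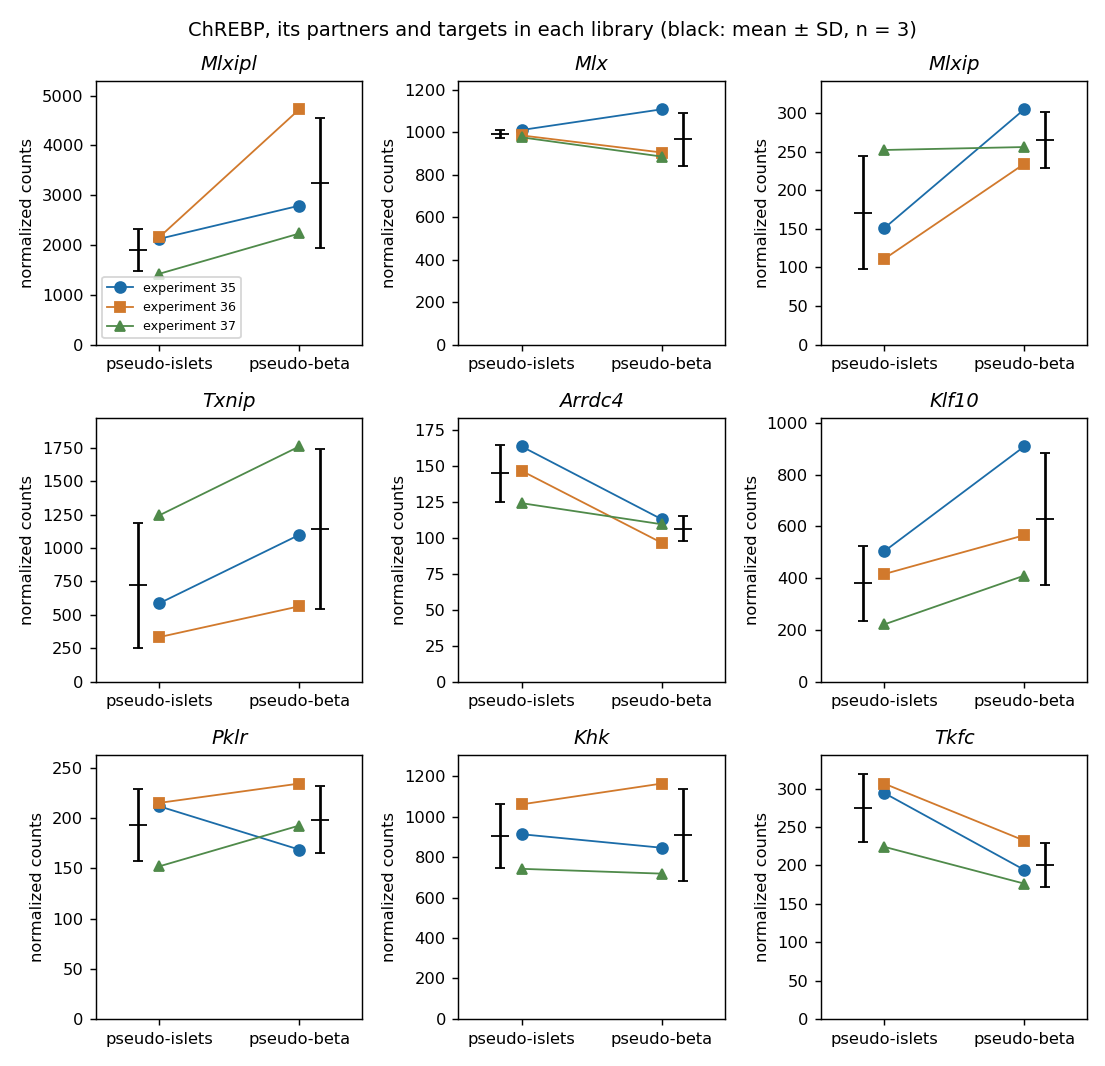
Normalized counts (vertical axes, from 0) of the 9 genes in the 6 libraries, with lines that join the pseudo-islets and pseudo-beta of one experiment and the mean ± SD of each group in black. The lines of *Mlxipl*, *Mlxip*, *Txnip* and *Klf10* go up from pseudo-islets to pseudo-beta in 3 of 3 experiments, and those of *Arrdc4* and *Tkfc* go down.

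Counted over the 9 genes, 4 were lower in pseudo-islets in 3 of 3 experiments (*Mlxipl*, *Mlxip*, *Txnip* and *Klf10*), as were 15.0% of all genes, and 2 were higher (*Arrdc4* and *Tkfc*), as were 18.0% of all genes. The groups did not overlap for *Mlxipl*, on the lower side with 5.13% of all genes, and for *Arrdc4*, on the higher side with 5.63%. In limma without a block, 0 of the 9 passed at 0.05 after Benjamini-Hochberg adjustment over all genes, against 0.0591% of all genes, and 2 had an unadjusted p under 0.05, against 5.40%. With the experiment as a replicate block, 2 had an adjusted p under 0.05, *Mlxipl* and *Txnip*, against 0.539%, and 5 had an unadjusted p under 0.05, against 11.9%. Under that block the count was 1 without experiment 35 (*Mlxipl*), 2 without experiment 36 (*Txnip* and *Klf10*) and 0 without experiment 37, where 28, 73 and 45 of all genes passed. With the block and a single prior variance for all genes, neither *Mlxipl* nor *Txnip* passed in limma (adjusted p = 0.539 and 0.510), and 0 of all genes did, with 1136 under 0.05 before adjustment. Since the 9 genes were picked with this contrast known, nothing is read from these counts. The median log2 difference was -0.05 over the 9 genes and 0.01 over all genes, and it was 0.05 over the 9 without the pseudo-islets of experiment 37.

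**Figure D2:**
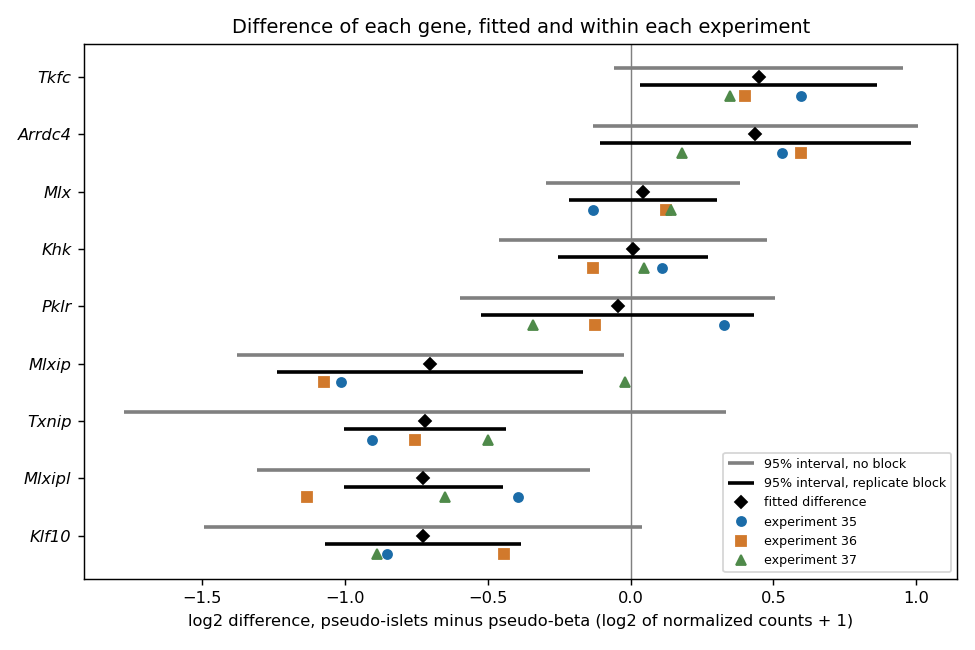
Log2 difference of pseudo-islets minus pseudo-beta for each of the 9 genes (horizontal axis), with the fitted value as a diamond, its 95% interval without a block in grey and with the experiment as a block in black, and the difference within each experiment as coloured points. *Klf10*, *Mlxipl*, *Txnip* and *Mlxip* lie between -0.73 and -0.70, *Pklr*, *Khk* and *Mlx* near 0, and *Arrdc4* and *Tkfc* at 0.44 and 0.45.

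The within-experiment differences of *Mlxipl*, *Txnip* and *Arrdc4* ran in different orders. The difference of *Mlxipl* was widest in experiment 36 and narrowest in experiment 35, whereas that of *Txnip* was widest in experiment 35 and narrowest in experiment 37. *Arrdc4*, which differed the other way, was widest in experiment 36, as was *Mlxipl*, and narrowest in experiment 37, as was *Txnip*. Over the 6 libraries, which come as 3 pairs that share an experiment, the correlation of log2 values was -0.28 between *Mlxipl* and *Txnip*, -0.58 between *Mlxipl* and *Arrdc4* and -0.45 between *Txnip* and *Arrdc4*. Among the other genes of the 9, r with *Mlxipl* was 0.69 for both *Klf10* and *Khk* and 0.66 for *Pklr*. With *Txnip* it was 0.83 for *Mlxip*, -0.88 for *Khk* and -0.89 for *Tkfc*, and with *Arrdc4* it was 0.76 for *Tkfc* and -0.76 for *Mlxip*. These correlations describe 6 libraries that are not independent. Neither group nor experiment was removed from the values, so the level of an experiment enters r together with the difference between the groups.

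The levels of 3 of the 9 genes differed between the experiments in limma, a comparison that was added after their values had been seen. *Txnip* was lowest in experiment 36 and highest in experiment 37 in both groups, and its mean log2 level in experiments 35, 36 and 37 was 9.65, 8.76 and 10.53, a range of 1.77. *Klf10* had its lowest level in experiment 37 in both groups, and its range was 1.16, from 8.24 to 9.40. *Mlxipl* was also lowest in experiment 37 in both groups, with a range of 0.84. Limma's test of a difference among the 3 experiments, with the group in the model and Benjamini-Hochberg adjustment over all genes, gave an adjusted p = 0.000526 for *Txnip*, 0.0145 for *Klf10* and 0.0242 for *Mlxipl*. It called these 3 of the 9 genes and 6.32% of all genes. Since the values had been seen before, this count is given as a description and nothing is read from it.

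*Khk* did not pass, with a range of 0.61 and an adjusted p = 0.0657 in limma, but it passed in limma with an adjusted p = 0.0450 when genes below 10 normalized counts in any library were dropped. Its order from experiment to experiment was the reverse of that of *Txnip* in both groups. The ranges of the others were 0.65 for *Mlxip*, 0.42 for *Tkfc*, 0.39 for *Pklr*, 0.22 for *Arrdc4* and 0.19 for *Mlx*, with adjusted p values in limma from 0.353 to 0.857. Only *Txnip* passed when either library of experiment 37 was left out, and *Klf10* did not pass in limma without the pseudo-islet or the pseudo-beta library of experiment 35 (adjusted p = 0.0521 and 0.0789). The result also changed with the prior variance, and none of the 9 or of all 13535 genes passed in limma when a single prior variance served all genes, although 1962 genes were under 0.05 before adjustment. What differed between the experiments is not given in the sources used here.

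**Figure D3:**
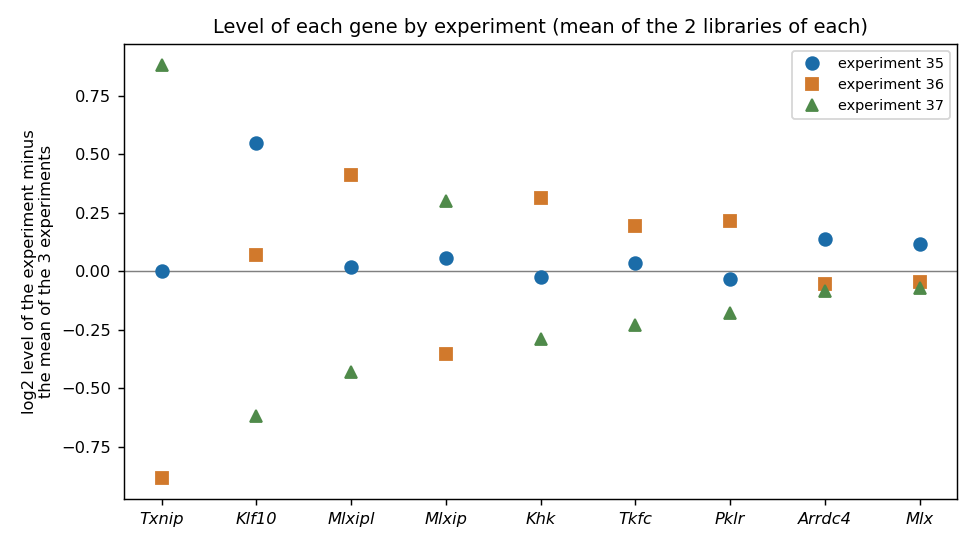
Mean log2 level of each gene in experiments 35, 36 and 37 (mean of the pseudo-islets and pseudo-beta libraries) minus its mean over the 3 experiments (vertical axis), with genes ordered by their range. *Txnip* runs from -0.88 in experiment 36 to 0.88 in experiment 37, and *Arrdc4* and *Mlx* span 0.22 and 0.19.

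Between genes, levels can be set side by side only per length. Per kilobase of annotated exon (all exons of a gene joined), the mean over the 6 libraries was 505 normalized counts for *Khk*, 489 for *Mlx*, 465 for *Mlxipl*, 298 for *Txnip*, 121 for *Klf10*, 60.5 for *Pklr*, 51.6 for *Tkfc*, 31.1 for *Arrdc4* and 26.2 for *Mlxip*. Each gene's range over the libraries overlapped that of its neighbour in this order. *Mlxipl* ranged from 257 to 853 and *Mlxip* from 13.3 to 36.6 with no overlap, so the transcripts of ChREBP exceeded those of MondoA in every library. *Txnip*, at 107 to 563, likewise lay above *Arrdc4*, at 23.9 to 40.6. The joined exons hold more sequence than any 1 transcript, which lowers these values by an amount that differs between genes.

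The genes whose log2 values ran most like those of *Mlxipl* over the 6 libraries, among 10576 genes averaging 50 normalized counts or more, were *Fbxo44*, *Tgfbr3* and *Rhno1* (r = 0.989, 0.987 and 0.984). For *Txnip* they were *Arhgap21*, *Phc2* and *Rmnd5a* (r = 0.995, 0.991 and 0.990), and for *Arrdc4* they were *Rin2*, *Stk26* and *Slc7a14* (r = 0.998, 0.990 and 0.989). None of these 9 is a partner or target on the lists used here, and with 6 libraries that share experiments the values describe likeness only.

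The rest of the pathway was followed on 8 lists of related genes, 81 different genes in the table in all, which were drawn up from their known roles. None of the 81 passed at an adjusted p of 0.05 in limma, without the block (lowest adjusted p = 0.400) or with it (lowest adjusted p = 0.0951), beside the 0.0591% and 0.539% of all genes. An unadjusted p under 0.05 was found for 3 of the 81 without the block and 18 with it, beside 5.40% and 11.9% of all genes. Among partners of the wider MAX network, whose proteins pair with MAX, with MLX or with both, 7 of 10 genes were in the table. All 7 had a log2 difference below 0, with a median of -0.23. The lowest was *Myc* with -0.37 (standard error 0.34), which was -0.06 without the pseudo-islet library of experiment 35 and -0.65 without that of experiment 37, and the highest was *Max*, the hub of the network, with -0.01 (standard error 0.20), whose sign was positive when any of 3 libraries was left out. *Mxd4* and *Mxd1*, which code for repressors, were at -0.32 and -0.33.

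Of 20 further genes known as ChREBP targets in liver or islets, 13 were in the table, with 6 below and 7 above 0 and a median of 0.01. Among those averaging 50 normalized counts or more, *Elovl6*, a fatty acid elongase, had the highest difference with 0.46 (standard error 0.26) and *Fasn*, the fatty acid synthase, the lowest with -0.32 (standard error 0.43). Without the pseudo-beta library of experiment 36, *Elovl6* was at 0.19. *Slc2a2*, the glucose transporter of beta-cells, was at -0.16 and *Acly*, which makes cytosolic acetyl-CoA, at 0.20. *Rgs16*, a regulator of G-protein signalling, was at -0.25. *Scd1*, a desaturase gene named here after its values had been seen, had 61.5 ± 28.5 normalized counts (SD, n = 3) in the pseudo-islet libraries against 10.6 ± 3.92 (SD, n = 3) in the pseudo-beta libraries, a log2 difference of 2.38 (standard error 0.54) that did not pass in limma, with an adjusted p = 0.400 without the block and 0.0951 with it.

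Around the enzyme genes, 5 of 8 genes of the fructose and polyol pathway were in the table, with a median log2 difference of 0.18, from 0.00 for *Akr1b3*, the aldose reductase, to 0.55 (standard error 0.20) for *Aldoc*, an aldolase that had 398 ± 38.2 normalized counts (SD, n = 3) in the pseudo-islet libraries against 272 ± 37.0 (SD, n = 3) in the pseudo-beta libraries. Of 19 genes of glucose entry and glycolysis, 16 were in the table, 12 above and 4 below 0, with a median of 0.06. *Slc2a1* was the highest with 0.38 (standard error 0.30) and *Pcx*, the pyruvate carboxylase, the lowest with -0.29 (standard error 0.28). With 1 library left out, *Slc2a1* ran from 0.12 (pseudo-islets of experiment 36) to 0.68 (pseudo-islets of experiment 37), and *Pcx* from -0.57 (pseudo-islets of experiment 37) to -0.04 (pseudo-beta of experiment 37). *Pkm*, the pyruvate kinase expressed besides *Pklr*, was at 0.07.

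Beside *Txnip* and *Arrdc4*, 3 of 4 other alpha-arrestins were in the table, *Arrdc2* with 0.65 (standard error 0.40), *Arrdc3* with -0.01 and *Arrdc1* with -0.11 (standard error 0.27). Without the pseudo-beta library of experiment 37, *Arrdc2* was at 0.28. The list of the thioredoxin system, which the TXNIP protein inhibits, had 7 genes, of which 6 were in the table. The missing one, *Nlrp3*, is not itself part of that system. The 6 had a median log2 difference of 0.12. Among those averaging 50 normalized counts or more, the differences ran from 0.29 (standard error 0.19) for *Txn1* to -0.01 (standard error 0.33) for *Txnrd2*. Beside *Klf10*, 11 of 15 other KLF factors were in the table, 10 of them below 0, with a median of -0.10. *Klf16* was the lowest with -0.58 (standard error 0.33), and *Klf15* was the highest of those averaging 50 or more, with -0.03 (standard error 0.53).

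Of genes for proteins known to modify ChREBP, to bind it or to set its place in the cell, all 22 were in the table. Their roles differ, and 10 were below and 12 above 0, with a median of 0.01. *Ywhag*, a 14-3-3 protein, was the highest with 0.37 (standard error 0.20). *Ogt*, the enzyme that attaches O-GlcNAc, was the lowest with -0.47 (standard error 0.18), with 1176 ± 277 normalized counts (SD, n = 3) in the pseudo-islet libraries against 1603 ± 80.8 (SD, n = 3) in the pseudo-beta libraries.

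**Figure D4:**
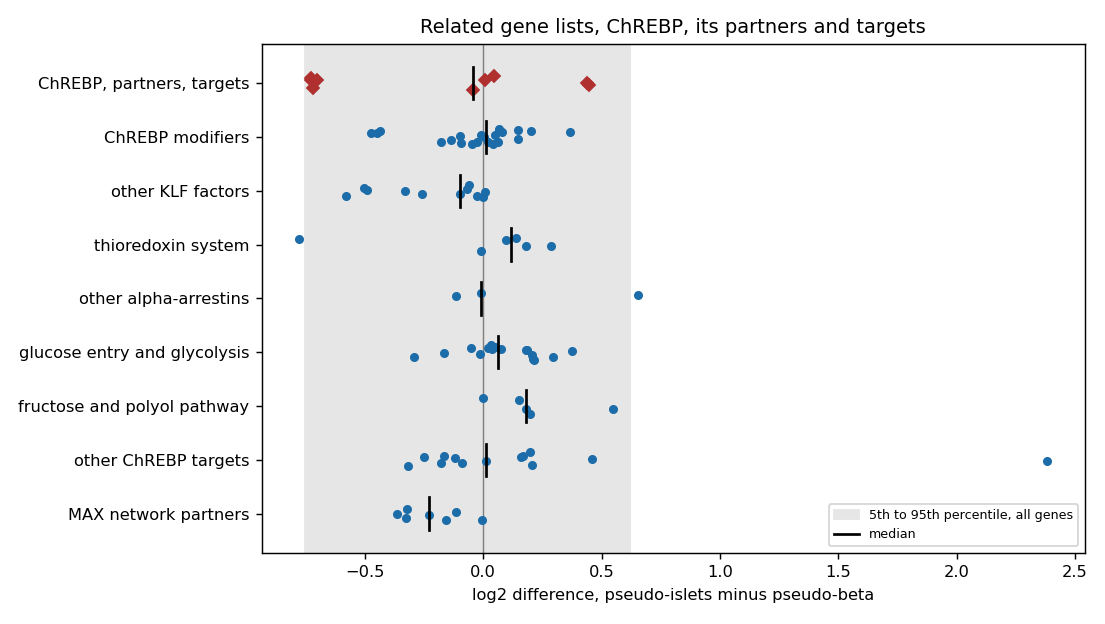
Log2 difference of pseudo-islets minus pseudo-beta (horizontal axis) of each gene in the 8 lists (blue points) and of the 9 genes of ChREBP, its partners and targets (red diamonds), with the median of each list as a black bar and the 5th to 95th percentile of all genes, -0.75 to 0.62, in grey. The medians lie between -0.23 and 0.18, and *Scd1*, at 2.38, is the point farthest to the right.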

How the data were processed

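RNA of sorted beta-cells was sequenced by the authors from 5 ng of total RNA after removal of ribosomal RNA. Per the labels and methods, reads were aligned to GRCm38 with STAR 2.7.6a and quantified with RSEM 1.3.1. The deposited signal is the authors' normalized counts, scaled with DESeq2 1.26.0, for 13535 genes. The annotation release and any filter are not given in the sources used here. Each of the 13535 genes had at least 10 normalized counts in 3 or more libraries, which a gene can reach through 1 group alone. The sums per library run from 17994300 to 19635300, and the number of reads is not known. Whole reads could not be recovered from the values, so that no count test was run. Further columns deposited by the authors give their own comparison (its log2 change and error, a test score and p-values), and none was used.

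Values were analysed as log2(value + 1) with limma 3.58.1 in R 4.3.3, with a prior variance that follows mean level, no block, and Benjamini-Hochberg adjustment across the whole table at 0.05. The median standard error was 0.27 and, with the replicate block, 0.21. Per the study's methods, n stands for independent biological samples, and the labels number the 3 samples of each group as such. The deviations of libraries from their group means correlated across genes at 0.119, 0.121 and 0.325 within experiments 35, 36 and 37, all above the minimum of 0.1, so the experiment numbers were taken to pair the samples. Between different experiments the correlations ran from -0.203 to 0.0922. The highest of these was for pseudo-islets of experiment 35 with pseudo-beta of experiment 36. Experiments 35 and 36 were therefore barely told apart by this measure, and the calls made with the block rest on the pairing. The fits were also run on simulated data in which every gene had the same spread, so that check does not bear on the choice of prior variance.

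The 9 genes and the lists were chosen with earlier results of these data known. Of each list, genes called with or without the block were to be named, or else the highest and lowest averaging 50 normalized counts or more. For *Mlxipl*, *Txnip* and *Arrdc4*, the 3 genes with the highest correlation were named. Gene positions and exon lengths are from GENCODE M21 and promoter windows from RefSeq, both on GRCm38. Alternatives were the block, 2 other scalings, a filter of 10 normalized counts in every library, pseudocounts of 0.1 and 10, the same prior variance for every gene, and leaving out each library or experiment.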

Additional observations from a re-analysis of the deposited data

How the results depend on the processing

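Over the 16 alternatives set with the design, the differences of *Mlxipl*, *Mlxip*, *Txnip*, *Klf10*, *Arrdc4* and *Tkfc* kept their sign, with ranges of -0.96 to -0.42, -1.04 to -0.43, -1.22 to -0.27, -0.996 to -0.38, 0.34 to 0.56 and 0.36 to 0.59. Those of *Mlx*, *Pklr* and *Khk* took both signs. The block, the filter and the same prior variance leave these fitted differences as they are, so no sign could turn there. A block fit without an experiment averages the differences within the other experiments. It could not turn the genes that kept their sign either, since each of them had the same sign in every experiment. The count of called genes on each of the 8 lists was 0 under all 16. The count over all genes was 8, and it was 73 with the replicate block, 2 with scaling without the 10 most abundant genes, 2 with quantile normalization, 1 with a pseudocount of 0.1, 2 with the same prior variance and 0 to 13 with a library left out. With the block it was 28, 73 and 45 without experiment 35, 36 and 37. Fits with the block added after seeing the data gave 0 with the same prior variance, 82 with scaling without the 10 most abundant genes and 118 with the filter. Of the 9 genes, 2 were called with the block, and 1, 2 and 0 without experiment 35, 36 and 37. Their median ran from -0.16 to 0.054 with a library left out, and was -0.23 with the block without experiment 35. The count of the 9 that differed between experiments, a comparison added after seeing the data, was 3, and it was 0 with the same prior variance, 4 with the filter and 1 to 3 with a library left out. Among the named list genes, the sign turned with a library left out for *Max* (-0.20 to 0.096), *Fasn* (-0.74 to 0.073), *Akr1b3* (-0.066 to 0.096), *Arrdc1* (-0.36 to 0.12), *Txnrd2* (-0.37 to 0.28) and *Klf15* (-0.47 to 0.48), and with quantile normalization for *Txnrd2* (0.059) and *Klf15* (0.045). With the block it turned without experiment 35 for *Max* (0.025) and *Txnrd2* (0.36), and without experiment 36 for *Max* (0.067), *Akr1b3* (0.12), *Arrdc1* (0.018), *Txnrd2* (0.13) and *Klf15* (0.40). Over the 16 alternatives *Txn1* ran from 0.15 to 0.44, *Ywhag* from 0.23 to 0.56 and *Ogt* from -0.65 to -0.31. The causes were not tested. The number of reads behind the values is not known, so that no counting error was computed.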

Other observations

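The enzymes that attach and remove O-GlcNAc, a sugar mark carried by ChREBP and many other proteins, had differences of like size. *Oga*, named after its values had been seen, had 821 ± 89.1 normalized counts (SD, n = 3) in the pseudo-islet libraries against 1152 ± 369 (SD, n = 3) in the pseudo-beta libraries, a log2 difference of -0.45 (standard error 0.22) beside the -0.47 of *Ogt*. Both were lower in pseudo-islets in 3 of 3 experiments, as were 15.0% of all genes. Within experiments the log2 differences were -0.30, -0.26 and -0.78 for *Oga* and -0.14, -0.55 and -0.72 for *Ogt*. The fitted differences of both genes lie within the 5th to 95th percentile of all genes, -0.75 to 0.62. Neither passed in limma with Benjamini-Hochberg adjustment, with an adjusted p = 0.932 and 0.872 without the block and 0.216 and 0.161 with it.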
